A study of Mus musculus with 28 samples.

Results

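The 6 transcription factors described here were Pax8, Nkx2-1, Foxe1, Hhex, Glis3 and Zbtb20. They were found by matching the Ensembl identifiers of the count tables to gene symbols, and each of the 6 had a row among 47643 gene rows, of which 17068 held at least 1 read. The series measured polyadenylated RNA by 3′ end sequencing in cells sorted from mice that carry histone H2B fused to green fluorescent protein (GFP). Once such a label is no longer made, cells that divide dilute it and cells that seldom divide keep it. On that basis the GFP+ fraction is taken to hold label-retaining cells. The groups were GFP+ thyroid cells at 3, 6 and 9 months of age (4, 4 and 3 libraries), GFP− thyroid cells at the same ages (4, 4 and 3 libraries), and GFP+ and GFP− salivary gland cells at 9 months (3 libraries each), 28 libraries in all. All 8 groups came from H2B-GFP mice, and the labels name neither a promoter that drives the label nor a length of chase. The labels do not say whether replicates are separate animals, so the p-values given here measure only the spread between these samples, which may be technical.

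The thyroid follicular cell, which makes thyroid hormone, is specified in the embryo by Pax8, Nkx2-1, Foxe1 and Hhex acting together, and the same factors are kept in the adult cell. Pax8 and Nkx2-1 bind the promoters of the thyroglobulin and thyroid peroxidase genes, and Glis3 is a zinc finger factor needed in mice for normal hormone synthesis. Zbtb20 is a BTB domain zinc finger repressor that is best known from liver, where it silences alpha-fetoprotein, and from the hippocampus, and it is made in many tissues. It is therefore no marker of the follicular lineage, and it is set here against the 5 lineage factors.

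The start regions of these genes differ in base composition. RefSeq promoter windows (build GRCm38.p6, 250 bases before to 50 after the start) were found for 5 of the 6 genes, and 3 are shown because they carry the contrast between Zbtb20 and the lineage factors. Capitals mark each CG, the dinucleotide that can be methylated, which was searched for as the letters CG and reads the same on both strands. The sequences run 5′ to 3′ on the strand of the gene.
Zbtb20, chr16:43247034-43247333, plus strand: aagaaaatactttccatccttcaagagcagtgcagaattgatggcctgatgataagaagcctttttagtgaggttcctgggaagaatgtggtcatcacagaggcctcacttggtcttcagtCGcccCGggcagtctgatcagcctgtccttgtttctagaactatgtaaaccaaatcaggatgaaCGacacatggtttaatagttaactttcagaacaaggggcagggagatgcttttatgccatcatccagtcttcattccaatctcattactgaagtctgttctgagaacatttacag
Pax8, chr2:24475550-24475849, minus strand: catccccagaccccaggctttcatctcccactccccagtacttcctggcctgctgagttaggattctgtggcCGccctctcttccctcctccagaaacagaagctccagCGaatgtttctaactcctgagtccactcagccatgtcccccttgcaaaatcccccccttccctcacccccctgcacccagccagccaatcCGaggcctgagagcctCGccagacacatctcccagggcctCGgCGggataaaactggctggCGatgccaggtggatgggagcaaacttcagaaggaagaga
Hhex, chr19:37434591-37434890, plus strand: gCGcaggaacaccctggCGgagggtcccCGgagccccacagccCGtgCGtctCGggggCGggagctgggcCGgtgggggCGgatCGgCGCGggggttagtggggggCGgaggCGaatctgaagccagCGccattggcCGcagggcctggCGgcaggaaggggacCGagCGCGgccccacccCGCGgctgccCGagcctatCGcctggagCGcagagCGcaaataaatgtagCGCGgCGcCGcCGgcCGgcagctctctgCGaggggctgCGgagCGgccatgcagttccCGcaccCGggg
The Zbtb20 window held 3 CG and was 43.3% G and C, the Pax8 window held 7 CG at 59.3%, and the Hhex window held 37 CG at 75.7%. Over 32851 windows of the same length the median was 7 CG and 52.7% G and C, and 94.6% of windows held at least 1 CG. Fewer CG than in the Zbtb20 window were found in 23.3% of windows, and fewer than in the Hhex window in 94.4%. Nkx2-1 and Glis3, not shown, held 12 and 32 CG. The Zbtb20 window lies inside the annotated Zbtb20 gene, whose transcripts have several starts, while the Pax8 and Hhex windows reach past the 5′ end of their genes. These windows describe sequence only, since the files hold no measurement at the promoters.

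Depth limited what could be seen of these genes. Libraries held 507 to 209091 reads in genes, and 6 of the 28 held under 10000. Between 13.3 and 85.8% of reads were counted under no feature instead of under a gene. Levels are given in CPM, the read count of a gene scaled to the library total of reads in genes. A library with 0 reads of a gene allows up to 3 reads, which was 14.3 CPM in the deepest library and 5917 CPM in the shallowest. Intervals on pooled levels are exact 95% Poisson intervals and cover counting error only. The library labelled GFP+ thyroid, 6 months, replicate 4 held 507 reads and none of the 6 factors. Checked against cell type markers, all 8 follicular markers (Tg and others) had reads in both thyroid fractions, and their summed level was 0 to 4510 CPM in GFP+ libraries and 679.8 to 9862 CPM in GFP− libraries. The salivary GFP+ libraries held 1 read of these markers and the salivary GFP− libraries 18.

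By pooled reads, Zbtb20 and the lineage factors lay on opposite sides of the comparison between fractions. Zbtb20 was the most read of the 6 and had 753 reads in 11 GFP+ thyroid libraries, 856 CPM (796 to 919), against 349 reads in 11 GFP− libraries, 352 CPM (316.3 to 391). The 5 lineage factors together had 73 reads in GFP+ libraries, 82.97 CPM (65.0 to 104), against 159 reads in GFP− libraries, 160.5 CPM (137 to 187). In the edgeR fit over the 22 thyroid libraries neither Zbtb20 nor Foxe1, the only members with enough reads to be tested, passed an adjusted p of 0.05 for the mean of the 3 ages. In these bulk samples, fewer cells of a type and less RNA per cell cannot be told apart.

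Zbtb20 at 3 months stood at 1280.4, 848, 858 and 840.2 CPM in the 4 GFP+ thyroid libraries (2, 5, 16 and 147 reads), against 182, 305.7, 143 and 436 CPM in the 4 GFP− libraries (17, 50, 4 and 34 reads). Every GFP+ library lay above every GFP− library at this age, which was the case for 0.895% of the 1900 genes tested. On the TMM scale, which adjusts each library for its composition, the ranges overlapped, at 441 to 1262 CPM in GFP+ libraries and 265 to 761.7 CPM in GFP− libraries.

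At 6 months Zbtb20 was at 940.4, 891, 439.9 and 0 CPM in GFP+ thyroid libraries (80, 68, 86 and 0 reads), against 503, 619, 244 and 199 CPM in GFP− libraries (15, 3, 51 and 23 reads). The fractions overlapped, through the 507-read library at 0 and through replicate 3 at 439.9 CPM. At 9 months the gene was at 799, 1075 and 1326 CPM in GFP+ libraries (52, 183 and 114 reads), against 679.8, 566 and 561 CPM in GFP− libraries (4, 75 and 73 reads). All GFP+ libraries again lay above all GFP− libraries, also on the TMM scale (1151 to 1995 CPM in GFP+ libraries and 579 to 988 CPM in GFP− libraries), but so did 14.8% of all genes tested, by CPM, with 3 libraries a side.

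**Figure D1:**
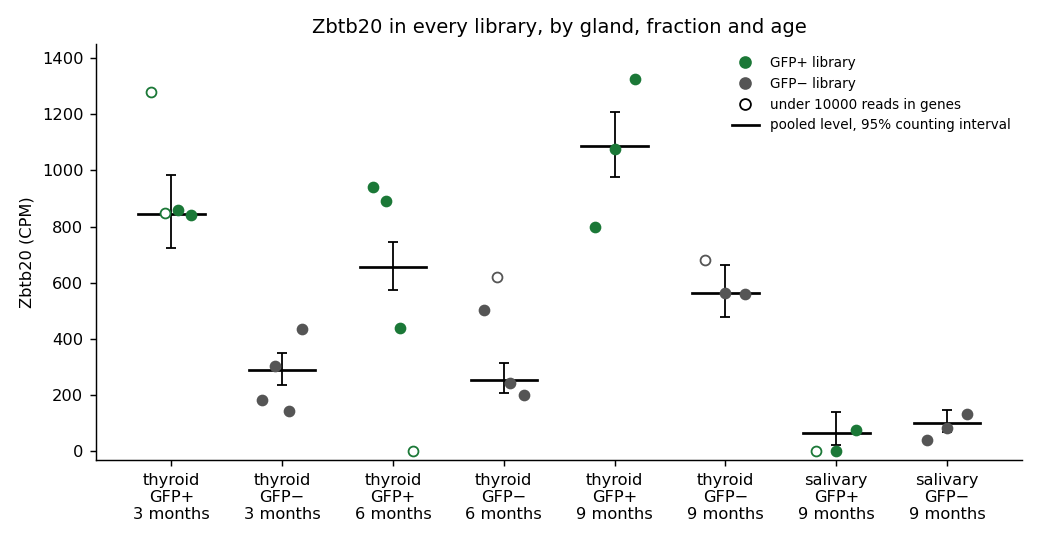
Zbtb20 level in CPM (vertical axis) in each of 28 libraries (points) by gland, GFP fraction and age (horizontal axis). Open points are libraries under 10000 reads in genes, black lines the pooled level of the group and bars its 95% counting interval. The GFP+ thyroid libraries at 3 and 9 months lie above the GFP− libraries of the same age, and salivary libraries lie at 133 CPM or below.

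The pooled Zbtb20 level was 846 CPM in GFP+ thyroid at 3 months, 655 at 6 months and 1086 at 9 months, against 289.4, 256 and 566 CPM in GFP− thyroid at those ages. The ratio of pooled reads, GFP+ over GFP−, was 2.92 at 3 months (2.28 to 3.76), 2.56 at 6 months (2.0 to 3.29) and 1.92 at 9 months (1.58 to 2.34), and these intervals do not include the spread between libraries. The fit with that spread gave a log2 fold change of 0.90 ± 0.39 (SE, 11 libraries a side) for the mean of the ages, with an adjusted p of 0.0925 by edgeR's quasi-likelihood test and Benjamini-Hochberg adjustment. In that comparison 20.2% of the 1900 genes tested were called, 11.4% of the 1900 as higher in GFP+ cells and 8.79% as lower. By age the log2 fold change was 0.95 ± 0.66 at 3 months, 0.87 ± 0.66 at 6 months and 0.89 ± 0.71 at 9 months (edgeR adjusted p 0.441, 0.593 and 0.85), where 9.74%, 7.11% and 1.89% of genes were called. The 3 fold changes were close, and the test of their difference gave an edgeR adjusted p of 1.0, with 0.158% of genes called.

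Whether Zbtb20 passed the threshold depended on the shallow libraries, the scaling, the filter and the test used, while its direction did not. Without the 5 thyroid libraries under 10000 reads the log2 fold change was 1.05 with an edgeR adjusted p of 0.000338. At 3 months that fit kept only replicates 3 and 4 of the GFP+ group. DESeq2 on all libraries gave 0.93 and 0.0143. A stricter filter, at least 20 reads in at least 50% of the libraries, gave 0.86 and 0.0113 in edgeR. The share of all genes called in these fits is not given here. Library totals without TMM factors gave 1.26 and 0.000197, and there the median of all genes stood at 0.21 instead of −0.08 and the split of called genes at 317 higher and 133 lower instead of 216 and 167. Without GFP+ replicate 4 at 3 months that split was 140 higher and 217 lower. Leaving out GFP+ replicate 1 or 2 at 3 months, or GFP+ replicate 4 at 6 months, each under 10000 reads, also brought the adjusted p under 0.05 (0.0267, 0.0368 and 0.032).

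**Figure D2:**
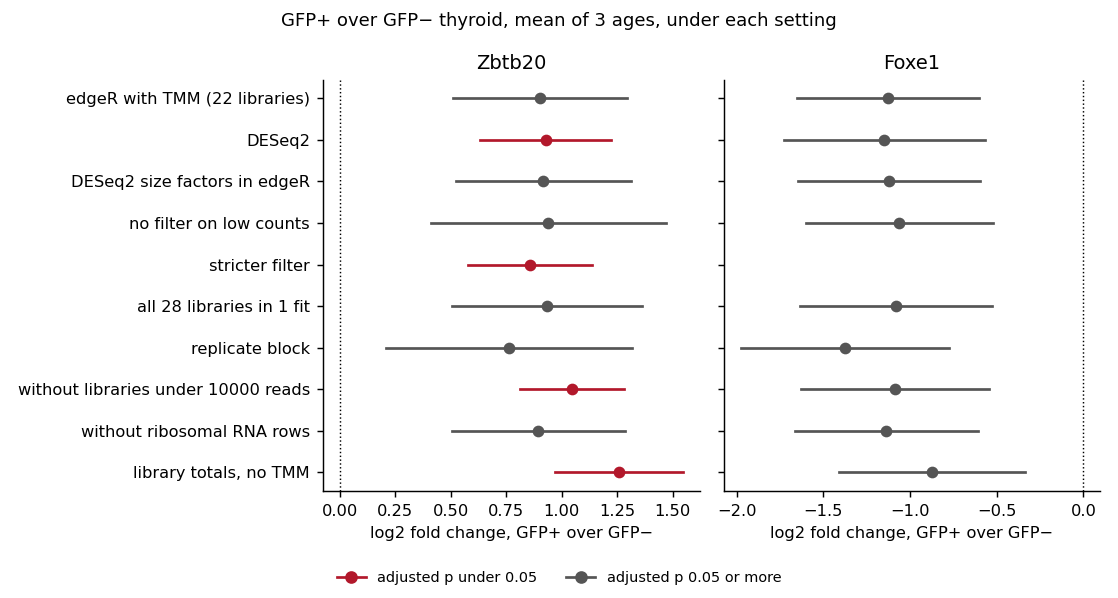
Log2 fold change of GFP+ over GFP− thyroid cells, mean of the 3 ages (horizontal axes), for Zbtb20 and Foxe1 under each processing setting (rows). Points are fitted values, lines their standard errors and red marks an adjusted p under 0.05. Zbtb20 lies between 0.76 and 1.26 in every row, and Foxe1, which did not pass the stricter filter, lies below 0.

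The lineage factors were near the limit of detection. By reads in thyroid, Zbtb20 ranked 111 among 16525 genes with reads, and Foxe1 ranked 2073, Nkx2-1 4544, Pax8 5308, Hhex 5424 and Glis3 9036. The libraries count 3′ ends, about 1 tag per transcript whatever its length, so ranks by reads compare genes without a correction for length, though how well each 3′ end is captured may differ. Of the 5, Foxe1 alone had enough reads to enter the test.

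Pax8, a paired domain factor that drives thyroglobulin and thyroid peroxidase, had 11 reads in GFP+ thyroid libraries, 12.5 CPM (6.24 to 22.4), against 24 reads in GFP− libraries, 24.2 CPM (15.5 to 36.0). It was read in 3 of 11 GFP+ libraries, at 28.6 CPM at 3 months and 11.8 and 25.6 CPM at 6 months, and in 7 of 11 GFP− libraries, at 17.3 to 38.5 CPM. At 9 months it had 0 reads in 321341 GFP+ reads, which allows 9.34 CPM, against 22.3 CPM in GFP− cells, at least 2.39-fold lower in GFP+ cells by the limit of 3 reads alone. With the counting error of both fractions the ratio could be as high as 0.71. The pooled ratio over all ages, 0.516 of the GFP− level, had a counting interval of 0.228 to 1.09 that includes equality. Without GFP+ replicate 4 at 3 months, which held 5 of the 11 reads, it was 0.351 (0.117 to 0.882).

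Nkx2-1, a homeodomain factor that also marks lung and the calcitonin-making C cells of the mouse, had 9 reads in GFP+ thyroid libraries, 10.2 CPM (4.68 to 19.4), against 35 reads in GFP− libraries, 35.3 CPM (24.6 to 49.1). In GFP+ libraries it reached 11.4 CPM at 3 months, 15.3 at 6 months and 46.1 and 5.87 at 9 months, with the other libraries at 0. In GFP− libraries it reached 75.1, 73.4 and 25.6 CPM at 3 months, 28.7 at 6 months and 61.4 at 9 months, with the other 6 at 0. The pooled GFP+ level was 0.29 of the GFP− level (0.122 to 0.615 by counting). Of 6 C cell markers 3 were tested and all 3 were called lower in GFP+ cells, with a summed level of 678 to 21165 CPM in GFP+ libraries and 2039 to 27883 CPM in GFP− libraries and Calcb at 0 in both, and their part in the result was not tested. The largest gap was at 3 months, at 9.95 CPM in GFP+ cells on 2 reads and 57.9 CPM in GFP− cells on 21 reads, a ratio of 0.172 (0.0195 to 0.703).

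Foxe1, a forkhead factor needed in the mouse for migration of the thyroid primordium, was the most read lineage factor, with 40 reads in GFP+ thyroid libraries, 45.5 CPM (32.5 to 61.9), against 68 reads in GFP− libraries, 68.6 CPM (53.3 to 87.0). At 3 months it was at 0, 169.6, 0 and 149 CPM in GFP+ libraries and at 64.3, 116, 71.5 and 38.5 CPM in GFP− libraries. The 169.6 CPM rests on 1 read in a library of 5896, and the 149 CPM on 26 reads. Without the second of these libraries, GFP+ replicate 4, the level over all ages was 19.9 CPM in GFP+ cells, 0.289 of the GFP− level instead of 0.662. At 6 months it was at 35.3, 13.1, 20.5 and 0 CPM in GFP+ libraries (3, 1, 4 and 0 reads). Each lay below the 67.0, 206, 57.4 and 52.0 CPM of the GFP− libraries (2, 1, 12 and 6 reads). That order was seen in 2.63% of the 1900 genes. It rests on few reads, and the 0 is from the library of 507 reads, where 1 read is 1972 CPM. At 9 months Foxe1 was at 61.4, 5.87 and 0 CPM in GFP+ libraries and at 0, 75.4 and 53.8 CPM in GFP− libraries. The fractions overlapped there.

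In the fit, Foxe1 had a log2 fold change of −1.13 ± 0.53 (SE) for the mean of the ages, with an edgeR adjusted p of 0.127. By age it was 0.05 ± 0.76 at 3 months, −1.66 ± 0.91 at 6 months and −1.77 ± 1.01 at 9 months, with edgeR adjusted p of 0.985, 0.354 and 0.662. The value at 3 months changed sign under several alternatives, and the difference between ages had an edgeR adjusted p of 1.0. Without GFP+ replicate 1 at 9 months the mean of the ages was −1.73 and passed the threshold (edgeR adjusted p 0.0262).

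Hhex, a homeodomain factor that keeps the thyroid bud in the mouse embryo and is also made in endothelium, had 9 reads in GFP+ thyroid libraries and 25 in GFP− libraries. Pooled, these were 10.2 CPM (4.68 to 19.4) and 25.2 CPM (16.3 to 37.3), a ratio of 0.405 (0.1665 to 0.898). At 3 months the ratio was 1.35 (0.504 to 3.5). All 9 GFP+ reads came from replicate 4 at 3 months, at 51.4 CPM, and the other 10 GFP+ libraries had none. In GFP− libraries it was at 64.3, 30.6, 0 and 12.8 CPM at 3 months, at 33.5, 0, 4.78 and 34.7 CPM at 6 months and at 0, 52.8 and 0 CPM at 9 months. Without that GFP+ library, which held every GFP+ Hhex read, GFP+ cells were at least 5.93-fold lower by the limit of 3 reads in 704840 alone. With the counting error of both fractions the ratio could be as high as 0.224. In an edgeR fit with no filter on low counts Hhex was called lower (log2 fold change −2.75 ± 0.78, edgeR adjusted p 0.0235). The share of all genes called in that fit is not given here. The fitted size depends on the prior count because the GFP+ groups at 6 and 9 months were at 0. Endothelial markers moved with it, 8 of 8 called lower in GFP+ cells, with a summed level of 0 to 2561 CPM in GFP+ libraries and 1937 to 8487 CPM in GFP− libraries, and their part in the result was not tested.

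Glis3 was the least read, with 4 reads in GFP+ thyroid libraries, 4.55 CPM (1.24 to 11.6), against 7 reads in GFP− libraries, 7.07 CPM (2.84 to 14.6). A difference was not detectable at this depth, at a pooled ratio of 0.643 (0.138 to 2.53). In the fit with no filter the other 3 untested factors did not pass either, at −1.70 for Pax8, −1.50 for Nkx2-1 and −0.55 for Glis3 (log2 fold change, edgeR adjusted p 0.232, 0.334 and 1.0).

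**Figure D3:**
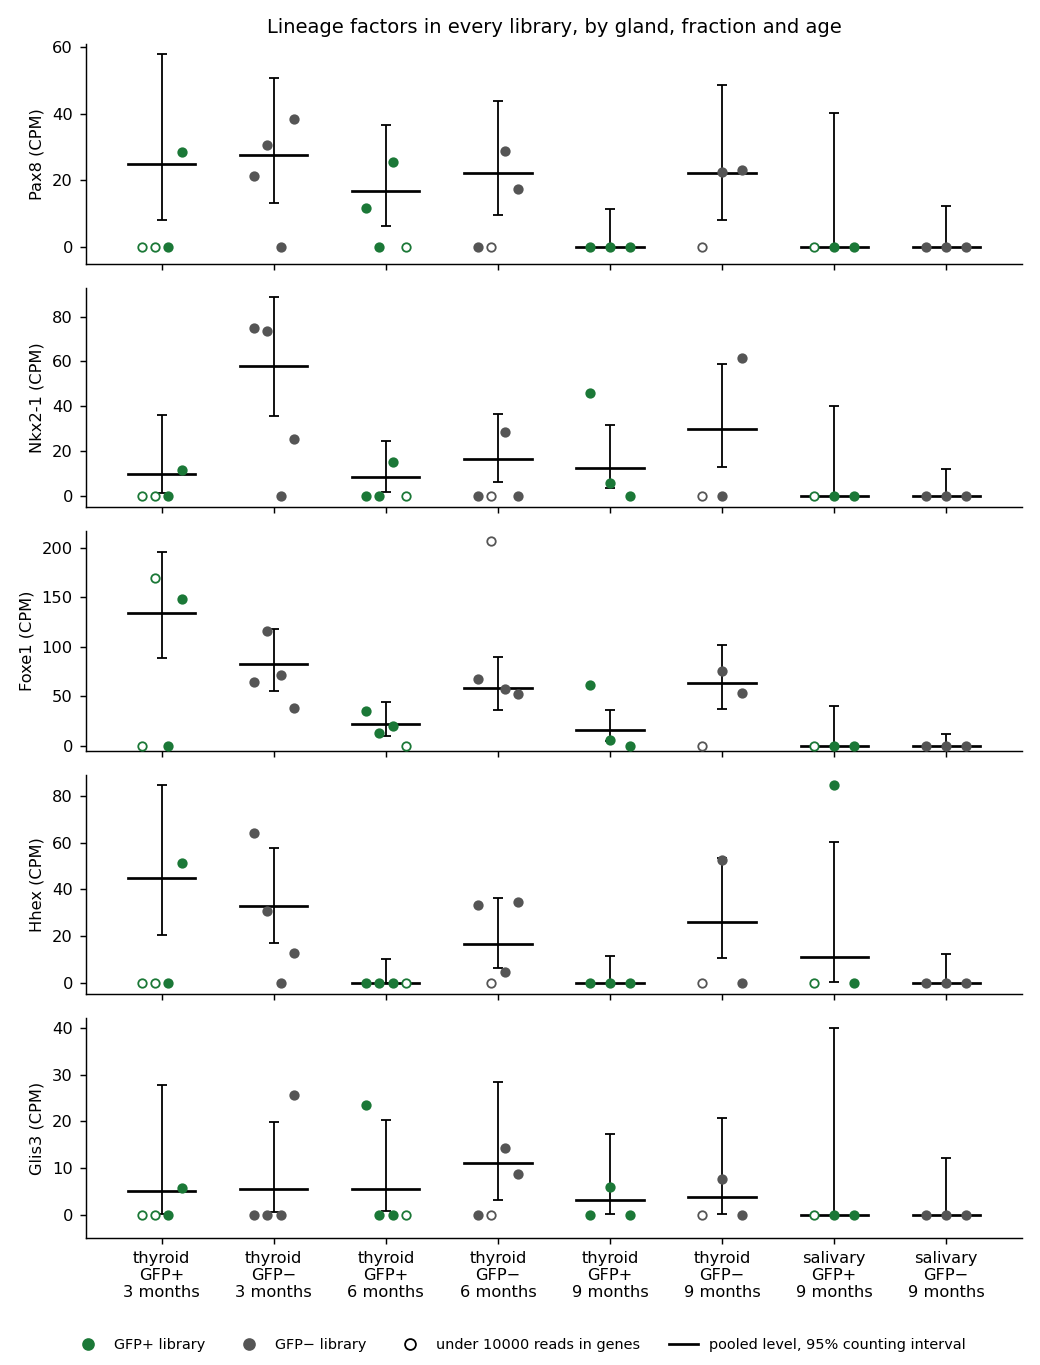
Levels of Pax8, Nkx2-1, Foxe1, Hhex and Glis3 in CPM (vertical axes, 1 panel per gene) in each library (points) by gland, fraction and age. Open points are libraries under 10000 reads in genes, black lines pooled levels and bars their 95% counting intervals. Many libraries lie at 0, and the GFP+ values at 3 months come largely from replicate 4.

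One library carried most lineage reads of the GFP+ fraction. Replicate 4 at 3 months held 43 of the 73 GFP+ lineage reads, and without it the sum of the 5 was 42.6 CPM in GFP+ cells against 160.5 CPM in GFP− cells, a ratio of 0.265 (0.173 to 0.394) instead of 0.517 (0.386 to 0.686). By age the sum was 219, 53.2 and 31.1 CPM in GFP+ cells at 3, 6 and 9 months, against 207, 125 and 145 CPM in GFP− cells. That library held 174957 of the 201054 GFP+ reads in genes at 3 months. Without it the GFP+ sum at 3 months was 38.3 CPM, on 1 read in 26097. The ratio was then 0.185, with a counting interval of 0.00463 to 1.065 that includes equality. Over all ages Zbtb20 hardly moved, at 859.8 CPM in GFP+ cells without that library.

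Zbtb20 therefore made up most reads of the 6 factors in both fractions, and more of them in GFP+ cells. Its share was 79.4% of 214 reads in GFP+ thyroid at 3 months, 92.5% of 253 at 6 months and 97.2% of 359 at 9 months. In GFP− thyroid it was 58.3% of 180 reads, 67.2% of 137 and 79.6% of 191 at those ages. Over all ages the share was 91.2% in GFP+ cells (exact binomial interval 89.0 to 93.0%) and 68.7% in GFP− cells (64.5 to 72.7%). Among libraries with at least 10 reads of the 6 factors, the share was 77.4 to 100% in 8 GFP+ libraries, with a median of 95.7%, and 44.7 to 83.3% in 8 GFP− libraries, with a median of 70.1%. These ranges overlapped through GFP+ replicate 4 at 3 months at 77.4%, without which the pooled GFP+ share at 3 months was 95.8%.

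**Figure D4:**
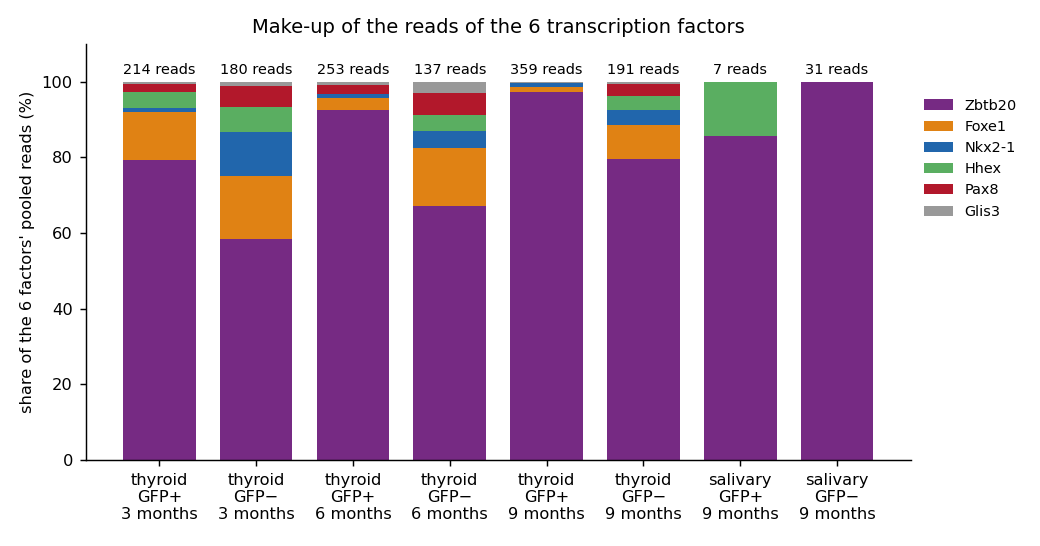
Share of the pooled reads of the 6 factors (vertical axis, in percent) that each factor held, by gland, fraction and age (horizontal axis), with the number of reads above each bar. Zbtb20 held 79.4 to 97.2% in the GFP+ thyroid groups and 58.3 to 79.6% in the GFP− thyroid groups.

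Neither Zbtb20 nor Foxe1, the only members with enough reads to be tested, passed a test over age. In GFP+ cells, Zbtb20 at 9 months over 3 months had a log2 fold change of 0.80 ± 0.68, and in GFP− cells of 0.85 ± 0.69 (edgeR adjusted p 0.884 and 0.814). In GFP− cells the 3 libraries at 9 months, 561 to 679.8 CPM, lay above the 4 at 3 months, 143 to 436 CPM, as did 4.21% of the genes tested. The summed level of fibroblast markers was also higher, at 3909 to 9439 CPM at 9 months and 1073 to 2171 CPM at 3 months in GFP− libraries, though 0 of the 10 markers were called by edgeR. Their part in the order was not tested. Foxe1 in GFP+ cells was lower at 9 months than at 3 months by a log2 fold change of −2.23 ± 0.99 that did not pass (edgeR adjusted p 0.473), and the joint tests over the 3 ages gave edgeR adjusted p of 1.0 and 0.522 in GFP+ cells and of 0.898 and 0.995 in GFP− cells for Zbtb20 and Foxe1. Of all genes, 0.947% and 0.684% were called at 9 over 3 months in GFP+ and GFP− cells, and 1.58% and 1.53% in the joint tests.

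In the salivary gland, Zbtb20 was read in both fractions and the lineage factors hardly at all. Pax8, Nkx2-1, Foxe1 and Glis3 had 0 reads in 393349 salivary reads, which allows 7.63 CPM, and Hhex had 1 read, in a GFP+ library. Zbtb20 had 6 reads in the GFP+ salivary libraries, at 0, 0 and 75.7 CPM, and 31 reads in the GFP− salivary libraries, at 39.2, 83.1 and 133 CPM. All Zbtb20 values in thyroid at 9 months lay above these in both fractions, as did 75.8% of 974 genes tested in GFP+ cells and 35.9% in GFP− cells, so the order is common among genes. The pooled ratio of thyroid over salivary gland was 16.7 in GFP+ cells (7.58 to 45.7) and 5.50 in GFP− cells (3.72 to 8.38). After TMM scaling, the fit gave a log2 fold change of 2.31 ± 0.98 in GFP+ cells and 0.88 ± 0.82 in GFP− cells, where the median gene stood at 1.15 and 0.17 (edgeR adjusted p 0.0872 and 0.573). Of all genes, 14.4% and 14.2% were called in these comparisons. Scaling by library totals without TMM gave Zbtb20 log2 fold changes of 4.12 and 2.65, both called (edgeR adjusted p 8.93e-05 and 0.000246), while the median gene moved to 2.86 and 1.96. The called genes were then 688 higher and 40 lower in GFP+ cells and 689 higher and 32 lower in GFP− cells, against 91 and 49, and 96 and 42, with TMM.

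GFP+ salivary cells rested on few reads, and 1 library decided the value. Zbtb20 passed the threshold in GFP+ cells with DESeq2 (adjusted p 0.026) and without GFP+ salivary replicate 3, where all remaining salivary GFP+ values were 0 and the fitted size is no bound. Within the salivary gland, Zbtb20 had a log2 fold change of −0.70 ± 1.07 for GFP+ over GFP− cells, and the difference between the glands in that contrast was 1.43 ± 1.30 (edgeR adjusted p 0.802 and 0.787). In both of these comparisons 0 of 974 genes (0.0%) were called by edgeR, with 96 and 86 genes at an unadjusted p under 0.05, and DESeq2 called 0 and 1. At 9 months Foxe1 and Nkx2-1 had 17 and 8 reads in GFP− thyroid. By the limit of 3 reads alone, these levels were at least 6.36-fold and 2.99-fold higher than in GFP− salivary cells. At the low end of the counting interval they were 4.63-fold and 1.91-fold higher. These ratios use library totals without TMM, a scale on which the median gene was also higher in GFP− thyroid, as given above. Whether Foxe1 and Nkx2-1 differ beyond that shift was not tested. In GFP+ cells, with 5 and 4 thyroid reads and 92013 salivary reads, a difference between the glands was not detectable for these genes.

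The genes whose levels followed Zbtb20 most closely over the 17 thyroid libraries with at least 10000 reads were Prrx1 (Pearson r 0.95), Tnfaip6 (0.94), Col1a2 (0.93), Tnfaip2 (0.93), Medag (0.93), Frmd6 (0.92), Adgrd1 (0.92) and Gsn (0.92), on TMM-scaled log2 CPM. Prrx1 is a homeodomain factor of mesenchyme, Col1a2 a chain of type I collagen and Tnfaip6 a hyaluronan-binding protein. Within the fractions, r with Prrx1 was 0.83 over 8 GFP+ libraries and 0.94 over 9 GFP− libraries, and that with Tnfaip6 was 0.64 and 0.95. The genes most like Foxe1 were Ifi27 (0.85), Cd24a (0.84), Chchd10 (0.83), Atp1b1 (0.82), Calr (0.78), Mmrn2 (0.77), Cox7b (0.77) and Apold1 (0.77). Within GFP+ libraries, r with Foxe1 ran from 0.72 (Mmrn2) to 0.88 (Ifi27). Within GFP− libraries it was 0.72 for Mmrn2, and for the others it ran from 0.06 (Apold1) to 0.39 (Ifi27). With all 22 thyroid libraries kept, r of Zbtb20 with Prrx1 was 0.73. These r values describe libraries that share depth and composition.

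Zbtb20 was set against the summed level of 10 fibroblast markers, such as Col1a1, Dcn and Pdgfra, in libraries of at least 10000 reads. In 8 GFP+ libraries r was 0.876 (exact permutation p 0.00258, two-sided; rho 0.929, exact p 0.00223) and in 9 GFP− libraries 0.822 (exact permutation p 0.00062; rho 0.833, exact p 0.00827). Adjusted over the 6 relations computed, these p-values of r were 0.00774 and 0.00372. Without the 2 libraries farthest from the median marker sum, r was 0.663 in GFP+ cells (exact permutation p 0.138) and 0.786 in GFP− cells (exact permutation p 0.0204). Such a cut leaves fewer libraries and a narrower range, so it cannot tell whether the relation in GFP+ cells rested on these libraries. With 1 library left out at a time, r in GFP+ cells ran from 0.708 to 0.953 (exact permutation p up to 0.0603). The relation with follicular markers was −0.401 in GFP+ cells and 0.603 in GFP− cells, and with endothelial markers −0.196 and −0.127, none of which passed (adjusted exact permutation p 0.176 to 0.735). Each age held too few libraries for a value within it, and in GFP− cells both measures were higher at 9 months than at 3 months, so the relation and age cannot be told apart there. The fibroblast markers themselves were called higher in GFP+ cells in 10 of 10 cases, at 0 to 19779 CPM in GFP+ libraries and 1073 to 9439 CPM in GFP− libraries, and the part of fibroblast content in the Zbtb20 level was not tested.

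**Figure D5:**
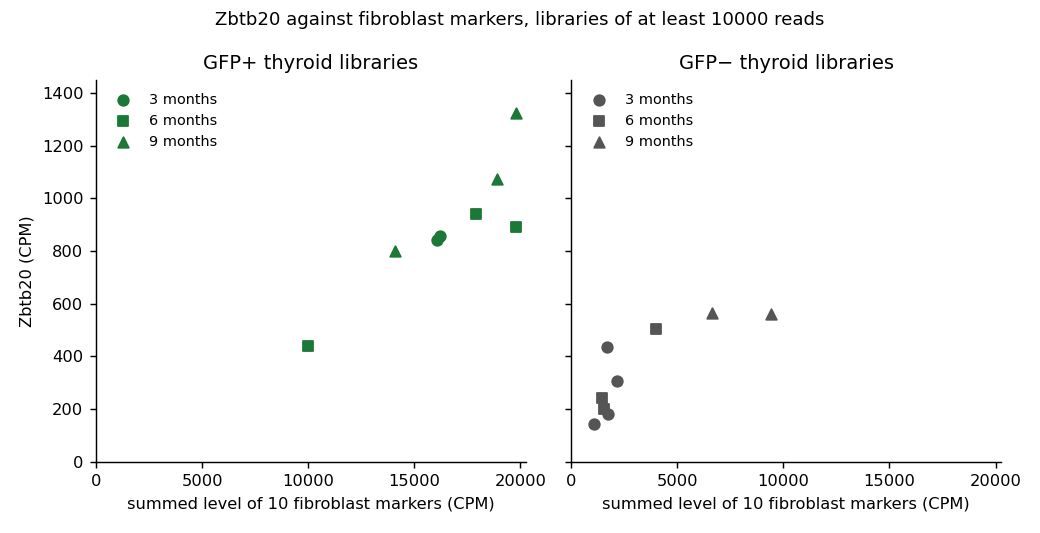
Zbtb20 level (vertical axis, CPM) against the summed level of 10 fibroblast markers (horizontal axis, CPM) in 8 GFP+ and 9 GFP− thyroid libraries (points, shaped by age). Zbtb20 was higher where the marker sum was higher in both fractions, with r of 0.876 and 0.822.

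Other transcription factors were compared over the same mean of the 3 ages, where 11.4% of the 1900 genes were called higher, 8.79% lower and the median log2 fold change was −0.08. Of 37 mesenchymal factors, 20 were tested, 7 were called higher in GFP+ cells and 1 lower, with a median of 0.64. Cebpd rose by 1.35 ± 0.38, Zeb2 by 1.72 ± 0.51 and Prrx1 by 1.46 ± 0.43, while Meis2 fell by 1.79 ± 0.41 (log2 fold change and SE, edgeR adjusted p 0.00284, 0.00543, 0.00552 and 0.000154). Prrx1 had 146 reads in GFP+ thyroid and 51 in GFP− thyroid. Leaving out replicate 4 of the GFP+ group at 3 months, Zeb2 was at −0.15, Prrx1 at 1.16 with an edgeR adjusted p of 0.116, and 4 mesenchymal factors were called higher. DESeq2 did not call Zeb2 (adjusted p 0.139). With the stricter filter 2 were called higher and with no filter 4.

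The BTB zinc finger family of Zbtb20 gave no called gene. Of 41 other members of the family, 3 were tested, and 0 were called by edgeR or by DESeq2, with 0 at an unadjusted p under 0.05. In 3 of the fits without 1 library 1 gene of the family was called. Bcl6 was called higher without GFP− or GFP+ replicate 1 at 9 months. Bcl6 was not tested in the main fit, and leaving out a library at 9 months loosens the filter by shrinking the smallest group. Zbtb7a was called lower without GFP+ replicate 4 at 3 months (log2 fold change −2.55, edgeR adjusted p 0.0171). Zbtb7a, the most read of them, had 129 reads in GFP+ thyroid cells and 189 in GFP− cells, with a log2 fold change of −0.62 ± 0.38 (edgeR adjusted p 0.287). Zbtb4 had 63 reads in GFP+ cells and 92 in GFP− cells, and a log2 fold change of −0.70 ± 0.45 (edgeR adjusted p 0.324). All 3 fitted values were below 0, on the other side from Zbtb20, and the difference was not tested.

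Among follicular genes, some of them targets of Pax8 and Nkx2-1, those called were lower in GFP+ cells. Of 18 listed, 7 were tested, 5 were called lower in GFP+ cells and 0 higher, with a median log2 fold change of −1.21. Thyroglobulin (Tg) fell by 2.22 ± 0.49, the deiodinases Iyd and Dio1 by 1.96 ± 0.41 and 2.30 ± 0.58, and the anion transporter Slc26a7 by 1.21 ± 0.41 (log2 fold change and SE, edgeR adjusted p 8.66e-05, 2.66e-05, 0.000762 and 0.018). Among the 11 genes with too few reads to test, some lay on the other side: the oxidase Duox1 had 16 reads in GFP+ cells and 0 in GFP− cells, and its maturation factor Duoxa1 had 15.9 CPM in GFP+ cells and 4.04 CPM in GFP− cells. The count of 5 was 3 with DESeq2 and between 2 and 6 when 1 library was left out, at 2 without GFP− replicate 3 at 6 months and at 3 without GFP− replicate 2 or 3 or GFP+ replicate 2 at 9 months. Slc26a7 did not pass in any of these 4 fits, nor without GFP+ replicate 1 at 9 months.

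Of 12 endothelial factors, 4 were tested and 3 were called lower, Epas1 by 1.76 ± 0.38, Mef2c by 1.91 ± 0.42 and Ets1 by 1.57 ± 0.44, with a median log2 fold change of −1.67. In 5 of the fits without 1 library, Foxc1 entered the test and was called higher in GFP+ cells (log2 fold change 3.29 to 3.72). Each left out a library at 9 months, which shrinks the smallest group and so loosens the filter on low counts. Foxc1 did not pass the filter of the main fit, so these calls rest on the looser filter. Gata3, a parathyroid factor among other roles and one of the listed endocrine and airway factors, fell by 1.63 ± 0.46 on the log2 scale (edgeR adjusted p 0.00345). Without GFP− replicate 2 at 9 months it did not pass (edgeR adjusted p 0.0797), and without GFP+ replicate 4 at 3 months it was at −2.78. Of 4 parathyroid markers 2 were tested and both were called lower, with a summed level of 2418 to 61464 CPM in GFP+ libraries and 5099 to 68516 CPM in GFP− libraries, and their part in the Gata3 result was not tested. All 8 dissociation response factors were tested, and Ier2 alone was called, falling by 1.06 ± 0.38 (edgeR adjusted p 0.0289), a call that DESeq2 did not make (0.16) and that was lost in 7 of the fits without 1 library (GFP− replicate 2 at 3 months, replicate 4 at 6 months or replicates 2 and 3 at 9 months; GFP+ replicate 2 at 6 months or replicates 1 and 3 at 9 months). The median of these 8 was −0.43.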

How the data were processed

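The deposited files give counts of reads per gene, 1 table per library, made by the authors. Per the labels' protocols, RNA was column purified with DNase treatment and made into 3′ mRNA libraries, and per the submitters' processing notes bcl2fastq was used and the build was mm9. The aligner, the counter and its use of strand are not given in the sources used here, so reads of overlapping genes cannot be told apart; within Zbtb20, BC002163 held 26 reads and Gm25873 held 7, and Gm12446, antisense to Foxe1, held 12. Summary rows (no feature and others, 13.3 to 85.8% of reads for no feature) were left out of library sizes. Of 47643 identifiers, 47224 matched GENCODE vM21 symbols. Ribosomal RNA rows, 25.1 to 63.8% of reads in genes, were kept.

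Differences were tested with the quasi-likelihood method of edgeR 4.0.16 under R 4.3.3, in its robust form. Libraries were scaled by TMM, genes passed filterByExpr (minimum 10, total 15), and p-values were adjusted over all genes of a fit by Benjamini-Hochberg, called at 0.05. The 22 thyroid libraries gave 1 fit of 1900 genes and the 12 libraries at 9 months another of 974 genes, with Zbtb20 in both and Foxe1 in the first. TMM factors ran from 0.232 to 10.7. The fits were also run on counts simulated from their own means, dispersions and TMM factors, and the outcome is not given here. Relations used exact permutation tests. Pooled levels sum reads over a group. Libraries of a group were compared in 36 pairs and none were alike within counting noise. Same-numbered libraries of the fractions correlated above 0.1 in 3 of 11 thyroid pairs and 2 of 3 salivary pairs. The labels name no pairing, and no block was used in the main fits. Alternatives were DESeq2 1.42.0, its size factors, other filters, all 28 libraries in 1 fit, a replicate block, and fits without small libraries, ribosomal rows or single libraries; library totals without TMM, and correlations with all libraries kept, were added after the data were seen. All 6 members are named, with up to 4 called genes of each list by adjusted p, or the 2 most read, and the 8 genes most like each tested member. Duox1, Duoxa1, Foxc1 and Bcl6 were named after their values were seen. The members and lists were chosen with earlier results of these data known. One gene of the endocrine and airway list, and the counts of that list, are not reported here.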

Additional observations from a re-analysis of the deposited data

Results flagged for a closer look

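In groups of 4 libraries, a library was singled out where its gap to the nearest other library took up nearly the whole range of the group (Dixon's criterion), which chance does in about 1 of 20 groups of continuous values. This happened in 10 of 23 groups of values examined, 8 of them groups in which the other 3 libraries had no read of the gene. There a single read meets the criterion and that rate does not hold. GFP+ thyroid replicate 4 at 3 months stood apart for Pax8 at 28.6 CPM, Nkx2-1 at 11.4 CPM, Hhex at 51.4 CPM and Glis3 at 5.72 CPM, with the other 3 libraries at 0. It was also the deepest of the 4, at 174957 reads in genes against 1562 to 18639, and it had the highest summed level of follicular markers of any GFP+ library (4510 CPM) and of airway markers (1337 CPM). The part of depth and of these markers in the difference was not tested. At the same age Zbtb20 stood apart in GFP+ replicate 1 at 1280.4 CPM, which rests on 2 reads.

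In GFP+ thyroid at 6 months, Nkx2-1 stood apart in replicate 3 at 15.3 CPM and Glis3 in replicate 1 at 23.5 CPM, on 3 and 2 reads. Among GFP− thyroid libraries, Glis3 stood apart in replicate 4 at 3 months at 25.6 CPM on 2 reads. Nkx2-1 did so in replicate 3 at 6 months at 28.7 CPM on 6 reads. Foxe1 did so in replicate 2 at 6 months at 206 CPM, on 1 read in a library of 4845.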

How the results depend on the processing

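For the mean of the 3 ages, the Zbtb20 log2 fold change stayed above 0 in every alternative and ran from 0.78 to 1.02 over the fits without 1 library. It passed the threshold with DESeq2 (0.93), the stricter filter (0.86), without libraries under 10000 reads (1.05) and with library totals in place of TMM (1.26). It did not pass with DESeq2's size factors (0.92), no filter (0.94), all 28 libraries in 1 fit (0.93) or without ribosomal RNA rows (0.89), nor with the replicate block (0.76, edgeR adjusted p 0.507). The labels do not say whether same-numbered libraries are paired, so whether the block fits the design is not known. Foxe1 ran from −1.73 to −0.92 without 1 library. The number of genes called, 383, was 188 with the replicate block, 89 with the stricter filter and 335 to 425 without 1 library; fewer genes enter the stricter filter. With the replicate block 0 mesenchymal factors were called higher instead of 7. The 5 follicular genes called lower became 3 with DESeq2, the 28 libraries, the block or library totals, and 1 with the stricter filter, which left 4 of 10 fibroblast markers called. In the salivary gland 18 genes were called without GFP+ replicate 3.

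The Zbtb20 share of the 6 factors' reads ran from 89.1 to 95.3% in GFP+ cells and from 66.2 to 71.7% in GFP− cells without 1 library. Foxe1 at 3 months turned to −0.077 with DESeq2, −0.0034 with its size factors, −0.031 with no filter, −0.00066 with all 28 libraries, −0.051 with the replicate block, and ran from −0.18 to 0.34 without 1 library; the cause was not tested. Zeb2 ran from −0.15 to 2.44. Joint tests over ages were not run in DESeq2. At these depths, 3 reads were 14.3 to 5917 CPM in 1 library.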
